A study of Rattus norvegicus with 9 samples.

Results

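The miR-133 family of striated muscle was followed in rat serum as the rows of the miRNA table named rno-miR-133a-3p, rno-miR-133b-3p and rno-miR-133c (rno, Rattus norvegicus). These are 3 of the 276 mature miRNAs listed, and they were taken by name and not by a cut on their values. Earlier results of these data were known when they were chosen. Serum was collected 4 weeks after surgery from wild-type male Sprague-Dawley (SD) rats, operated on at an age of 4 weeks. One group had pulmonary artery banding (PAB, n = 6), in which a plastic ring of fixed size is placed round the pulmonary artery to load the right ventricle (RV). The other group had a sham operation (n = 3). Each library was named for 1 rat. The methods also give isoflurane and buprenorphine for the surgery and pentobarbital for catheterization, with no difference between the groups stated.

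miR-133 is one of the miRNAs made almost only in heart and skeletal muscle. miR-133a is transcribed together with miR-1 in both muscle types, while miR-133b lies beside miR-206 and is best known from skeletal muscle. In mouse and rat heart, miR-133 is known to restrain growth of the cardiomyocyte, and muscle injury is known to release miRNAs of this kind into blood.

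The sequences are shown first because they decide which reads could be told apart. All 3 names matched the rat miRNA table of RefSeq (build GRCr8, a later build than the Rnor_6.0 named in the paper's methods). Bases run 5′ to 3′, and capitals mark the seed, bases 2 to 8, which selects the target mRNAs.
miR-133a-3p: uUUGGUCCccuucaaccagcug
miR-133b-3p: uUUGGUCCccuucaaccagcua
miR-133c: cAGCUGGUugaaggggaccaa

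miR-133a-3p and miR-133b-3p are nearly the same molecule. They share the seed UUGGUCC and differ by the single substitution G22A, counted from the 5′ end with the base of miR-133a-3p first. miR-133c goes against its family name in this annotation. Its seed is AGCUGGU, shared with no other mature miRNA of that table, and its reverse complement equals bases 2 to 22 of miR-133a-3p. The 2 names occupy the same bases on opposite strands, with miR-133a-3p at chr18:2157886-2157907 on the minus strand (gene Mir133a1) and miR-133c at chr18:2157886-2157906 on the plus strand (gene Mir3582, synonym Mir133c). The hairpins are shown with the mature miRNA in capitals, so that the antisense relation of the whole precursor can be read from them.
Mir133a1: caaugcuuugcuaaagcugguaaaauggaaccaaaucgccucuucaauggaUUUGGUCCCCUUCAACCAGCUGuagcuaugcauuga
Mir3582: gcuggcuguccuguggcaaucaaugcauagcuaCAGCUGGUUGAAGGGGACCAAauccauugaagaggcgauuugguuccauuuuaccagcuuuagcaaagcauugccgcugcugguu

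The reverse complement of the whole Mir133a1 hairpin was contained in the Mir3582 hairpin. Both lie inside the span of Mib1, a ubiquitin ligase gene of Notch signalling, which is read from the same strand as Mir3582. Mir1, which encodes miR-1-3p, lies on the strand of Mir133a1 within the same span, 2368 bases away. miR-133b-3p is at chr9:30594629-30594650 on the plus strand, with Mir206 3801 bases away on that strand. The reverse complement of miR-133c equals miR-133b-3p at 20 of 21 bases. How the authors counted reads on the 2 strands is not given in the sources used here, so reads of miR-133a-3p and miR-133c cannot be told apart from a single species counted under both names, and reads of miR-133a-3p and miR-133b-3p rest on the last base.

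The libraries held 19477 to 64455 miRNA reads in the PAB group and 56231 to 65313 in the sham group. miRNAs made up 0.101% to 0.412% of the library total implied by the authors' RPM (reads scaled to 1 common total per library) in the PAB group, and 0.332% to 0.517% in the sham group. Between 81 and 131 miRNAs were detected in PAB libraries, against 129 to 217 in sham libraries. The implied totals themselves were 1.283e+07 to 1.925e+07 in the PAB group and 1.263e+07 to 1.696e+07 in the sham group. The miRNA reads (median 39871 in PAB and 65196 in sham libraries) and the miRNAs detected (median 105.5 and 173) were lower in the PAB group, with overlapping ranges. Their part in the values below was not tested.

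The family was a minor part of the serum miRNAs. It had 1027 reads over the 9 libraries, of which miR-133c had 634 (61.7%), miR-133a-3p 348 (33.9%) and miR-133b-3p 45 (4.38%). By total reads, miR-133c ranked 68th, miR-133a-3p 82nd and miR-133b-3p 120th of the 276 names. The summed family took 0.0240% to 0.218% (median 0.0932%) of the miRNA reads of a PAB library, and 0.300%, 0.759% and 0.178% in sham libraries 1 to 3. In RPM the 3 sham libraries were the highest of the 9, with a family sum of 2.48 ± 1.94 RPM in the PAB group (SD, n = 6) and 17.0 ± 11.9 RPM in the sham group (SD, n = 3). As a share of miRNA reads, PAB library 6 (0.218%) was above sham library 3 (0.178%). What set these levels was not tested. In serum, fewer cells that release a miRNA and less of it released per cell cannot be told apart.

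miR-133a-3p, which represses growth and ion channel genes in the heart, was present in the serum of every rat. It had 9, 14, 4, 2, 26 and 20 reads in the PAB libraries (1 to 6), against 68, 175 and 30 in the sham libraries (1 to 3). The authors' RPM values were 0.468, 0.895, 0.258, 0.131, 1.36 and 1.56 in the PAB libraries, and 5.39, 10.5 and 1.77 in the sham libraries. The groups did not overlap in reads, which are not scaled for depth, or in RPM. In RPM, PAB library 6 came close to sham library 3. The same separation in RPM held for 9.88% of the 162 miRNAs above 0 in at least 3 of 9 libraries. The mean was 0.778 ± 0.591 RPM in the PAB group (SD, n = 6) and 5.87 ± 4.36 RPM in the sham group (SD, n = 3), 7.54-fold higher in sham. Without sham library 2, the highest of all, the sham mean was 4.60-fold higher.

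miR-133c, the antisense name, had more reads than miR-133a-3p in 7 of 9 libraries and as many in the other two. It had 9, 35, 4, 6, 44 and 43 reads in the PAB libraries (1 to 6), against 122, 306 and 65 in the sham libraries (1 to 3). In RPM this was 0.468, 2.24, 0.258, 0.392, 2.30 and 3.35 in the PAB libraries, and 9.66, 18.3 and 3.83 in the sham libraries. Again all 3 sham libraries were above all 6 PAB libraries, as for 9.88% of the 162 miRNAs in RPM. The mean was 1.5 ± 1.30 RPM in the PAB group (SD, n = 6) and 10.6 ± 7.27 RPM in the sham group (SD, n = 3), 7.06-fold higher in sham and 4.50-fold without sham library 2.

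miR-133b-3p, the form next to miR-206, was close to the limit of detection. It had 2, 5, 0, 4, 7 and 2 reads in the PAB libraries (1 to 6), against 6, 14 and 5 in the sham libraries (1 to 3). In RPM this was 0.104, 0.32, 0, 0.261, 0.365 and 0.156 in the PAB libraries, and 0.475, 0.836 and 0.295 in the sham libraries. The 0 of PAB library 3 allows up to 0.194 RPM (3 counts of that library, counting error only). PAB libraries 2 and 5 were above sham library 3, so that the groups overlapped. The mean was 0.201 ± 0.139 RPM in the PAB group (SD, n = 6) and 0.535 ± 0.276 RPM in the sham group (SD, n = 3), 2.66-fold higher in sham.

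**Figure D1:**
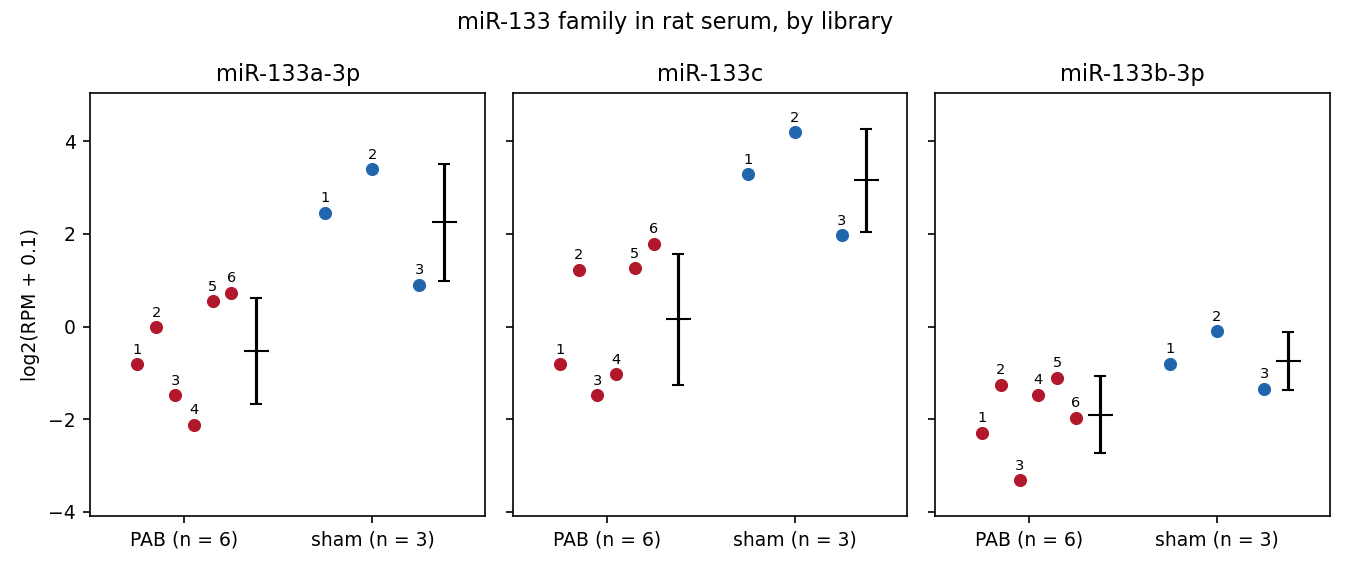
Level of each family member as log2(RPM + 0.1), with PAB libraries in red and sham libraries in blue, numbered by library, and the mean ± SD of each group as a bar. All 3 sham points lie above all 6 PAB points for miR-133a-3p and miR-133c, and the groups overlap for miR-133b-3p. In RPM, 9.88% of the 162 miRNAs tested had all 3 sham libraries above all 6 PAB libraries.

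Detection alone could not separate the groups, since miR-133a-3p and miR-133c had reads in 6 of 6 PAB and 3 of 3 sham libraries, and miR-133b-3p in 5 of 6 PAB and 3 of 3 sham libraries. With at least 5 reads asked for, miR-133b-3p was detected in 2 of 6 PAB and 3 of 3 sham libraries (Fisher's exact two-sided test, p = 0.167).

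The levels were compared between PAB and sham rats in 2 ways, since the answer depends on the scale. The first compared log2(RPM + 0.1) by a two-sided exact permutation test, whose 84 splits allow no p below 0.0119. The difference, PAB minus sham, was −2.78 for miR-133a-3p (group means −0.52 and 2.25) and −3.00 for miR-133c (0.16 and 3.15), each with an exact p of 0.0238. It was −1.16 for miR-133b-3p (−1.90 and −0.74, exact p = 0.0833). Of the 3, 0 passed after Benjamini-Hochberg adjustment of the exact p over the 162 miRNAs tested (those above 0 in at least 3 of 9 libraries). The adjusted exact p was 0.148 for miR-133a-3p and miR-133c and 0.201 for miR-133b-3p. The lowest of all 162 was also 0.148, so that no miRNA passed. Since no exact p can be below 0.0119, the adjustment could pass a miRNA only if many were at or near that limit. Leaving out sham library 2, the exact p was 0.0714 for miR-133a-3p and 0.107 for miR-133c, where 28 splits allow no p below 0.0357. Without PAB library 1, 3 or 4 it was 0.0536 for miR-133c.

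In RPM most serum miRNAs were lower in the PAB group. The difference was below 0 for 82.1% of the 162 miRNAs, with a median of −1.30, and 24.7% were lower with an exact p of at most 0.05. All 3 sham libraries were above all 6 PAB libraries for 9.88% of the 162, miR-133a-3p and miR-133c among them. Of these 16 miRNAs, miR-26a-5p, miR-22-3p and miR-10a-5p had more reads than the 2 family members. The difference was lower than that of miR-133c for 22 miRNAs, lower than that of miR-133a-3p for 30, and lower than that of miR-133b-3p for 85. As a share of miRNA reads, and likewise as TMM-scaled log2 counts per library, all 3 sham libraries were above all 6 PAB libraries for 4.94% of the 162, and no family member was among these.

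The second comparison used the read counts with TMM, a scaling that centres most miRNAs on no change, and edgeR's quasi-likelihood test over the same miRNAs, with a call at an adjusted p ≤ 0.05 and |log2FC| ≥ 1. In it 1.23% of the miRNAs were called lower in the PAB group and 0% higher, and no family member was called. On leaving out any single library other than sham library 3, 0 were called in either direction. The log2FC was below 0 for 53.1% of the miRNAs and for the 3 members. The log2FC, PAB against sham, was −1.25 for miR-133a-3p (standard error 1.72, adjusted p = 0.806), −1.39 for miR-133c (standard error 2.02, adjusted p = 0.816) and −0.10 for miR-133b-3p (standard error 1.10, adjusted p = 0.982). The median over all 162 was −0.15, so that miR-133b-3p stood at the middle of the serum miRNAs while miR-133a-3p and miR-133c were at −1.11 and −1.24 from it. A lower log2FC than theirs was found for 55 and 52 of the 162 miRNAs.

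When the totals that RPM implies were used for scaling instead of TMM, edgeR called 14.2% of the miRNAs lower, and again no family member. The log2FC were then −2.90 for miR-133a-3p, −2.81 for miR-133c and −1.38 for miR-133b-3p (adjusted p = 0.357, 0.433 and 0.499 from edgeR), against a median of −1.54 over all 162. The choice of scale moved the log2FC of miR-133a-3p by −1.65, of miR-133c by −1.42 and of miR-133b-3p by −1.28. The distance of miR-133a-3p from the median was −1.37, against −1.11 with TMM. DESeq2 on the same miRNAs gave a p for 136 of the 162, and called 2.47% of all 162 lower and 5.56% higher. Its log2FC were −1.11, −1.28 and 0.25 for miR-133a-3p, miR-133c and miR-133b-3p (adjusted p = 0.432, 0.380 and 0.873 from DESeq2). The sign of miR-133b-3p turned with the scaling.

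**Figure D2:**
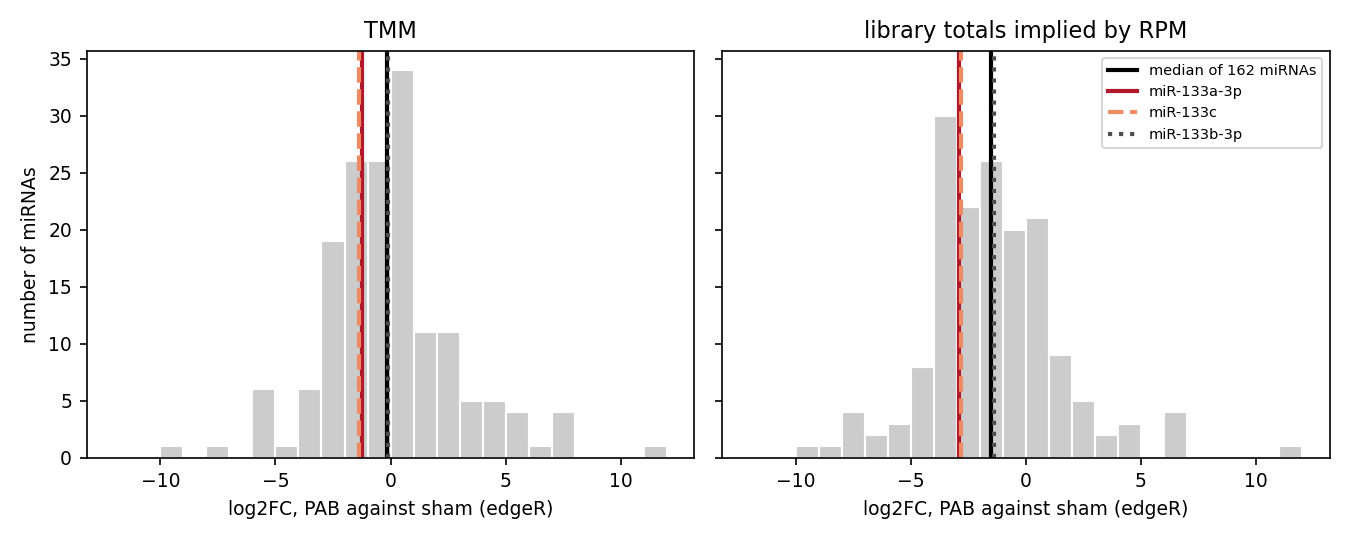
Number of miRNAs by log2FC, PAB against sham, from edgeR with TMM (left) and with totals taken from RPM (right), with coloured lines at the family members. With TMM the black median of 162 miRNAs is at −0.15, and with the implied totals it is at −1.54. miR-133a-3p and miR-133c lie left of it and miR-133b-3p beside it in both.

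The ratio of one member to another in the same library does not depend on the scale. miR-133c took 50%, 71.4%, 50%, 75%, 62.9% and 68.3% of the reads of miR-133c and miR-133a-3p in PAB libraries 1 to 6, and 64.2%, 63.6% and 68.4% in sham libraries 1 to 3. Over the pooled reads of a group it was 65.3% (95% Clopper-Pearson interval 58.5% to 71.6%, 216 reads) in the PAB group and 64.4% (60.9% to 67.8%, 766 reads) in the sham group. The intervals cover counting error only, and each library's interval overlapped every other. Over the same libraries the reads of the pair ranged from 8 in PAB libraries 3 and 4 to 481 in sham library 2.

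miR-133b-3p took a less even share of the reads of miR-133b-3p and miR-133a-3p. This was 18.2%, 26.3%, 0%, 66.7%, 21.2% and 9.09% in PAB libraries 1 to 6, and 8.11%, 7.41% and 14.3% in sham libraries 1 to 3. Pooled, it was 21.1% (95% Clopper-Pearson interval 13.4% to 30.6%, 95 reads) in the PAB group and 8.39% (5.50% to 12.1%, 298 reads) in the sham group. Both intervals pool the reads of different rats and cover counting error only. They leave out the spread between libraries, which was 0% to 66.7% in the PAB group. The library with 66.7%, PAB library 4, had 6 such reads in all, and the difference between the groups was not tested over libraries.

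**Figure D3:**
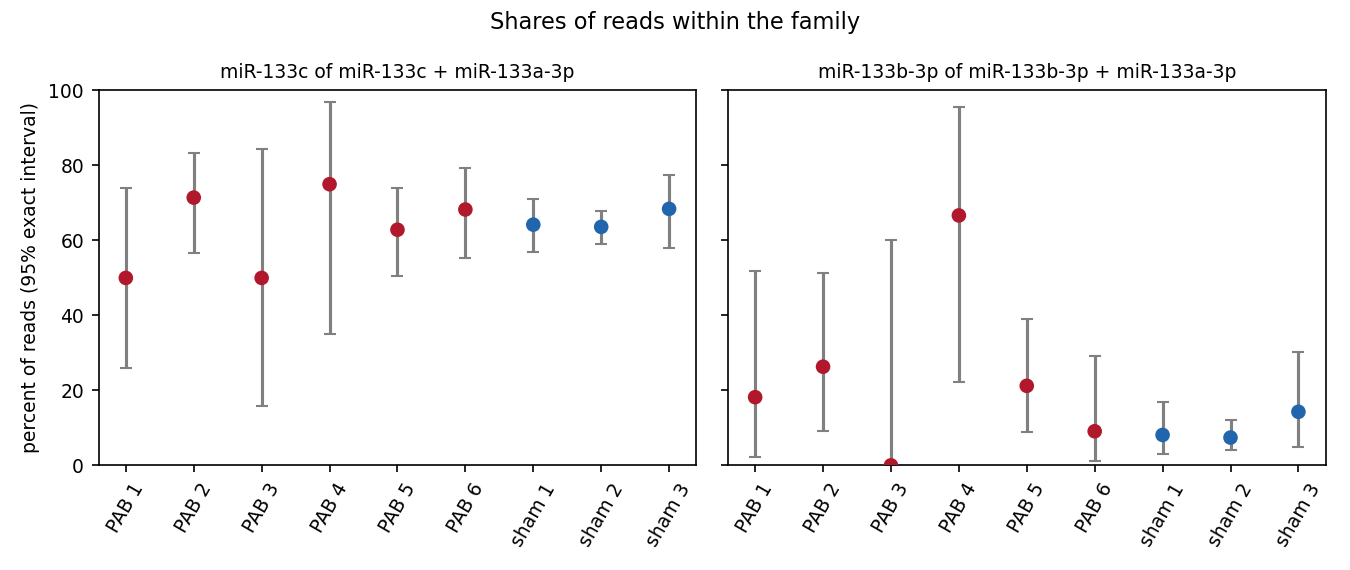
Share of reads (percent, with 95% exact binomial intervals) of miR-133c among miR-133c and miR-133a-3p (left) and of miR-133b-3p among miR-133b-3p and miR-133a-3p (right), for PAB libraries (red) and sham libraries (blue). The left share stays between 50% and 75% in all 9 libraries, and the right one ranges from 0% to 66.7%.

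Antisense names were looked for across the table to set this share beside those of other such pairs. Of the miRNA names matched in RefSeq, 13 pairs overlap on opposite strands by at least 16 bases, the miR-133 pair included. It was the one pair with reads under both names in all 9 libraries. The other 12 pairs had both names read in 0 to 6 libraries. Some of them had too few reads to be read under both names in all 9. The scarcer name had 1 read in all for miR-31b and miR-409a-3p, 2 for miR-3578 and 3 for miR-378a-5p. let-7a-5p and its antisense name miR-3596a were seldom read together, with 7653 and 1350 reads in all and reads under both names in 2 libraries. In PAB library 3 miR-3596a had 1007 reads and let-7a-5p 0, while in PAB library 5 miR-3596a had 0 and let-7a-5p 3221. let-7f-5p and miR-3596d were both read in 6 libraries, and let-7f-5p took 67.0% to 100% of the reads of its pair. These pairs were set beside the miR-133 pair after its values were seen, as a description with no test.

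**Figure D4:**
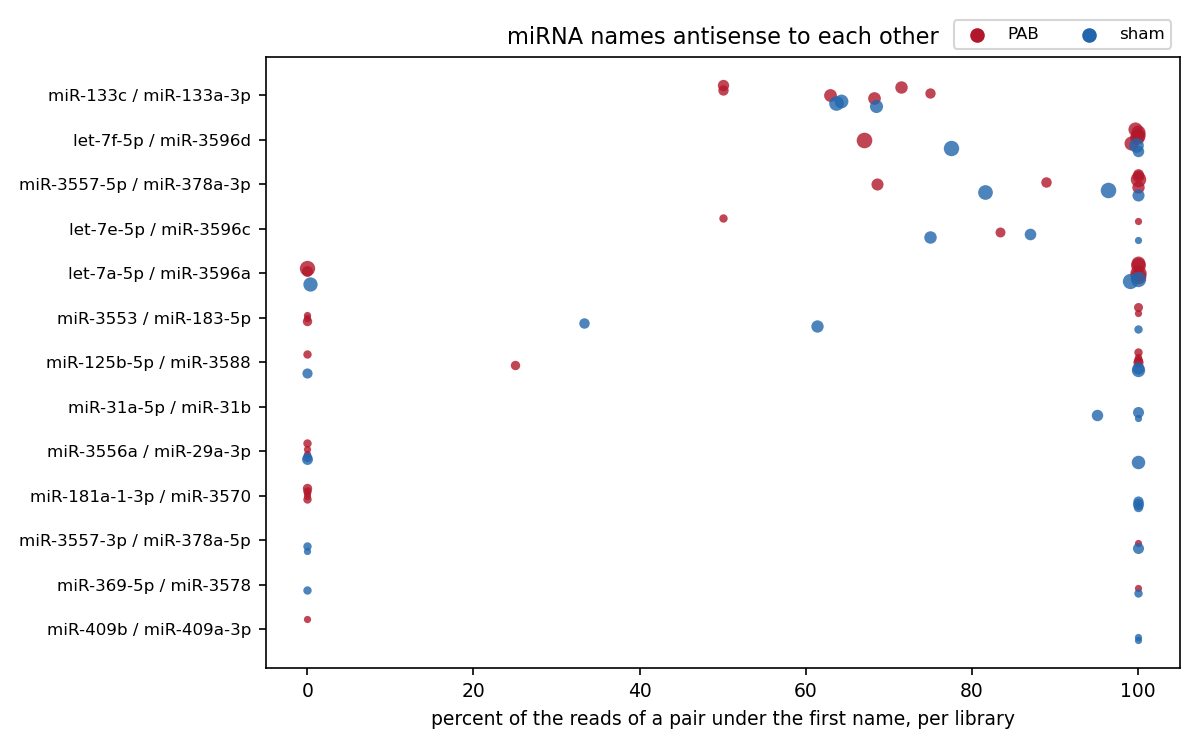
For the 13 pairs of antisense names, the percent of the reads of a pair that carry the first name, 1 point per library with reads (PAB red, sham blue, larger points for more reads). The miR-133 points at the top lie between 50% and 75%, while most points of the other pairs lie at 0% or 100%. A library with 1 read of a pair can only lie at 0% or 100%.

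The other muscle miRNAs were taken from a list of 13 names, of which the table held miR-1b, miR-499-5p and miR-206-3p. Their sequences, with the seed in capitals, show that miR-1b and miR-206-3p share the seed GGAAUGU, as does miR-1-3p.
miR-1b: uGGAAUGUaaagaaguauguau
miR-206-3p: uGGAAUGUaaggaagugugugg
miR-499-5p: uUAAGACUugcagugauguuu

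miR-1b differs from miR-1-3p, the partner of miR-133a in its transcript, by the single substitution G17A (the base of miR-1-3p first), so that the 2 names are told apart by 1 base. It had 41, 54, 8, 18, 43 and 111 reads in the PAB libraries (1 to 6), against 282, 801 and 62 in the sham libraries (1 to 3). Sham library 2 was again the highest and PAB library 3 the lowest, as for the summed family. Its mean was 3.03 ± 2.93 RPM in the PAB group (SD, n = 6) and 24.6 ± 22.2 RPM in the sham group (SD, n = 3), 8.13-fold higher in sham and 4.29-fold without sham library 2. The log2(RPM + 0.1) difference was −2.83 (exact permutation p = 0.0238, 0.148 adjusted over the 162 miRNAs), and the log2FC from edgeR with TMM was −1.18 (adjusted p = 0.871), and −0.52 on leaving out sham library 2. The exact p rose to 0.0536 without any 1 of PAB libraries 1 to 5 and to 0.107 without sham library 1 or 2, so that 7 of the 9 leave-outs were above 0.05. PAB library 6 was above sham library 3 in RPM, so that its groups overlapped.

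miR-499-5p, encoded in the myosin gene Myh7b, was scarcer. It had 2, 0, 0, 0, 1 and 3 reads in the PAB libraries (1 to 6), against 19, 42 and 1 in the sham libraries (1 to 3). Its log2FC was −2.19 with TMM (adjusted p = 0.351 from edgeR) and −4.25 with the totals implied by RPM (adjusted p = 0.0456 from edgeR). It was the one muscle miRNA called under that scale, where 14.2% of all miRNAs were called lower. With TMM and without sham library 2 the log2FC was −1.37.

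miR-206-3p, of skeletal muscle, did not share the pattern, although it lies beside miR-133b. It had 1, 536, 974, 751, 2 and 5 reads in the PAB libraries (1 to 6), against 10, 573 and 3 in the sham libraries (1 to 3). It was at 536 reads or more in 4 libraries and at 10 reads or fewer in 5, and both kinds occurred in both groups. Its log2FC was 2.94 (adjusted p = 0.597 from edgeR), and 6.96 on leaving out sham library 2 (adjusted p = 0.666 from edgeR). On log2(RPM + 0.1) the difference, PAB minus sham, was 0.75, and its sign turned to −0.09, −0.02 and −0.69 without PAB library 3, PAB library 4 and sham library 3. PAB libraries 3 and 4, which had the fewest family reads, had its highest counts. No miRNA of the list was called with TMM, where 1.23% of all miRNAs were called lower.

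**Figure D5:**
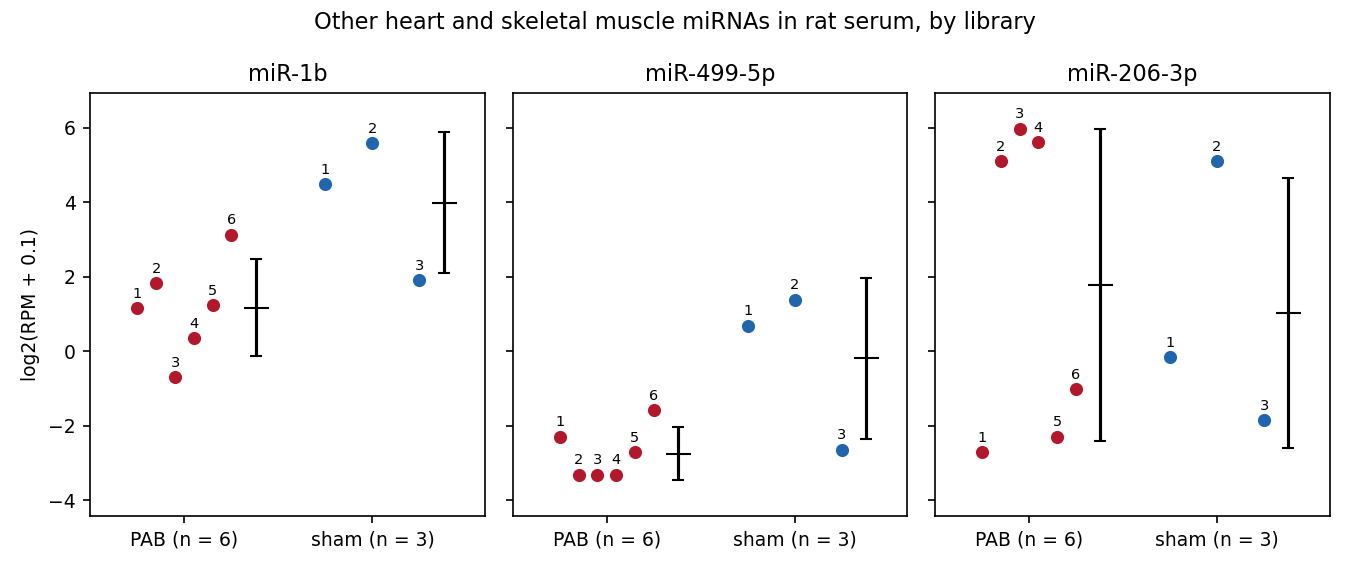
Level of miR-1b, miR-499-5p and miR-206-3p as log2(RPM + 0.1), with PAB libraries in red and sham libraries in blue, numbered by library, and the mean ± SD of each group as a bar. Sham libraries 1 and 2 are the highest for miR-1b and miR-499-5p, while miR-206-3p is high in PAB libraries 2, 3 and 4 and in sham library 2.

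Likeness to the members was described by Pearson's r of TMM-scaled log2 CPM over the 9 libraries, and no test was made. All miRNAs of a library share its depth and scaling factor, which differ between libraries. Spearman's rho is given beside r. For miR-133a-3p the nearest miRNAs outside the family by r were miR-1b (r = 0.87, rho = 0.67), miR-193b-3p (r = 0.85, rho = 0.86) and miR-23b-3p (r = 0.79, rho = 0.55). The same 3 were nearest to miR-133c by r, with r of 0.86, 0.82 and 0.79 (rho 0.73, 0.92 and 0.85). By rho, miR-193b-3p was nearer than miR-1b to miR-133a-3p and to miR-133c. miR-133a-3p and miR-133c had an r of 0.94 (rho 0.88) with each other. Their reads cannot be told apart from a single species counted under both names, so their likeness and shared neighbours are not separate results. miR-133b-3p was nearest by r to miR-328a-3p (r = 0.88, rho = 0.55), miR-146a-5p (r = 0.76, rho = 0.60) and miR-26a-5p (r = 0.74, rho = 0.78). It had an r of 0.42 (rho 0.53) with miR-133a-3p. miR-193b-3p had 47 reads in all and miR-133b-3p 45, so that these values rest on few reads.

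Markers of other sources of serum miRNA were summed for each library. Of 5 red blood cell miRNAs listed, miR-451-5p, miR-486 and miR-16-5p were in the table, with a sum of 33.3 to 209 RPM (median 100.6) in the PAB group and 6.81 to 50.6 RPM (median 37.9) in the sham group. All 3 had a log2FC above 0 with TMM (median 3.49, with miR-486 at 6.77) and none was called. Of all 162 miRNAs, 53.1% had a log2FC below 0 with TMM. A haemolysis index, log2 of miR-451-5p reads over those of miR-23a-3p (0.5 added to each), had a mean of −2.46 in PAB and −5.34 in sham libraries, and PAB minus sham was 2.88 (exact permutation p = 0.274). The 3 liver miRNAs summed to 0 to 117 RPM (median 79.4) in the PAB group and 32.0 to 163 RPM (median 56.4) in the sham group. Of these 3, 1 had a log2FC below 0 with TMM (median 0.0015, with miR-192-5p at 5.52 and miR-194-5p at −4.73). Of 4 platelet and white blood cell miRNAs, miR-223-3p and miR-150-5p were in the table, with a sum of 0.065 to 212 RPM (median 64.2) in the PAB group and 1.27 to 178 RPM (median 16.4) in the sham group. Of these 2, 0 had a log2FC below 0 with TMM (median 3.945, with miR-223-3p at 7.61). The ranges overlapped for all 3 lists, and edgeR with TMM called 0 of the 8 miRNAs. Their part in the miR-133 values was not tested.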

How the data were processed

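Serum small RNA of 6 PAB and 3 sham rats was sequenced by the authors. By the paper's methods, clean reads were aligned to Rnor_6.0 with Bowtie 2.2.5 and compared with miRBase. The processing notes of the submitters instead name Bowtie2 2.2.9 and GRCh38.p13, a human build. Which of these made the deposited values is not known. The use of strand in counting is not given in the sources used here. The authors' deposited table holds read counts, not normalized, and RPM, which the authors made by dividing the count by 1 total per library that is above the sum of the table. Counts of the 162 miRNAs above 0 in at least 3 of 9 libraries were tested with edgeR 4.0.16 (R 4.3.3), TMM and quasi-likelihood tests, with Benjamini-Hochberg adjustment. Standard errors were taken as log2FC over √F. For single values, log2(RPM + 0.1) was compared in an exact permutation test (two-sided). The alternatives were DESeq2 1.42.0, limma-voom (limma 3.58.1), other scalings, filters and pseudocounts, the library number as a block, summed members, and each library left out. The members, lists and tests were chosen with earlier results of these data known, and the antisense pairs after the values were seen. The rule for naming miRNAs took the 3 members, the muscle list and the 3 miRNAs nearest to each member by Pearson's r. The antisense pairs, miR-22-3p and miR-10a-5p were named outside it, after their values were seen, and the markers of other sources came from lists. Sequences came from RefSeq (GRCr8), where 196 of the 276 names matched, and no read sequence was used. The edgeR procedure was run on simulated counts much deeper than those of these libraries, so that run does not cover counts as low as those of the family. Python 3.11.15 with scipy 1.17.1 was used. p-values measure the spread between these libraries, and molecular identifiers are not mentioned in the methods.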

Additional observations from a re-analysis of the deposited data

Results flagged for a closer look

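Among the 6 PAB libraries, 1 value lay far from the others by Dixon's criterion at the 95% level. This was miR-1b in PAB library 6, at 8.65 RPM, whose gap to the next library was 0.639 of the range of the group, above the critical value for 6 samples. In all 9 quantities were looked at in this way, and chance passes about 1 in 20. The family members themselves had no such value, and PAB library 6 also had the highest family sum of the PAB group, 5.07 RPM.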

How the results depend on the processing

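The direction of miR-133a-3p and miR-133c was below 0 in all 20 alternatives of their log2FC and all 13 of their RPM difference, and neither was called in any alternative fit that gave it a p. With 1 library left out, the log2FC of miR-133a-3p was −1.49 to −0.94, that of miR-133c −1.65 to −1.17 and that of miR-133b-3p −0.42 to 0.39. With the members summed into 1 row it was −1.26, and with the antisense pair alone summed, −1.34, and these summed rows were given no p. miR-133b-3p turned to 0.25 with DESeq2, 0.28 with DESeq2's size factors in edgeR, 0.15 without PAB library 3, 0.39 on leaving out PAB library 6 and 0.26 on leaving out sham library 3, and was not tested with at least 10 reads in 3 libraries. In edgeR, DESeq2's size factors changed the scaling alone. The cause was not tested for the others. The exact test of miR-133a-3p and miR-133c did not pass on the TMM scale, with differences of −1.45 (p = 0.107) and −1.66 (p = 0.0833). With 1 library left out, their RPM differences were −3.45 to −2.20 and −3.58 to −2.47, with exact p of 0.0179 to 0.0714 and 0.0357 to 0.107. That of miR-133b-3p passed with a pseudocount of 1, at −0.35 (exact p = 0.0476). Over all miRNAs, 0 were higher and 2 lower, against 9 and 4 with DESeq2, 1 and 10 with no filter, 0 and 6 with library totals, 0 and 23 with the totals implied by RPM, and 0 lower with limma-voom, DESeq2's size factors in edgeR or at least 10 reads. With 1 library left out, 0 to 2 were lower, 2 on leaving out sham library 3 and 0 for each other library. At an unadjusted p under 0.05 edgeR found 7 higher and 17 lower. The library numbers did not pair the libraries (correlations −0.15, −0.35 and 0.03). On libraries 1 to 3 with the replicate block 0 were called lower and the log2FC were −1.91, −2.38 and −0.81 for miR-133a-3p, miR-133c and miR-133b-3p, against −1.86, −2.12 and −0.70 without the block and 0 called lower. Low read counts limit miR-133b-3p most, with 0 to 14 reads per library.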
